A study of Mus musculus with 18 samples.

Results

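The genes described here are the nuclear genes of oxidative phosphorylation, the protein-coding genes whose symbols name subunits of the 5 complexes of the mitochondrial inner membrane that carry out respiration and ATP synthesis. The set was chosen with earlier results of these data known. Its members were taken by symbol: Nduf followed by a, b, c, s or v and a number, Sdha to Sdhd, Cyc1, symbols that start with Uqcr or Atp5, and Cox4 to Cox8 followed by a, b or c. This leaves out Ndufab1, Cox4i1 and Cox4i2, and a summed count of at least 100 over all libraries was required. Of 55421 rows of the deposited table, 96 carried a matching symbol, 84 of these were protein-coding, and 80 reached the minimum: 36 of complex I, 4 of complex II, 9 of complex III, 14 of complex IV and 17 of complex V. Complexes follow the symbols throughout, so Ndufa4 and Ndufa4l2 are counted with complex I. The 4 that did not were Ndufs3 with 11 reads, Cox7b2 with 82, and Cox8c and a further Atp5o row with 0. All 80 passed the filter on low counts, so every fold change below covers all of them.

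Total RNA of whole striatum was sequenced from 18 mice labelled C57BL/6 and aged 12 to 14 months in 4 genotypes. WT (n = 5) carried neither allele. zQ175 mice (n = 5) were heterozygous for a knock-in of the Huntington's disease mutation, in which exon 1 of Htt is a human and mouse chimera with an expanded CAG repeat, and CK2a'(+/-) mice (n = 3) had 1 functional copy of Csnk2a2, which encodes the catalytic subunit alpha prime of protein kinase CK2. zQ175:CK2a'(+/-) mice (n = 5) carried both. Both alleles were germline and so were present in every cell type of the dissected tissue, and each library was labelled as a separate mouse. By the study's methods, females outnumbered males in WT and zQ175:CK2a'(+/-) mice and males outnumbered females in zQ175 and CK2a'(+/-) mice, and the labels do not give the sex of a library. In bulk tissue, fewer cells of a type and less RNA per cell cannot be told apart.

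Oxidative phosphorylation passes electrons from NADH and succinate through complexes I, II, III and IV to oxygen, and the proton gradient that I, III and IV build drives ATP synthase, complex V. Most subunits are encoded in the nucleus and imported into mitochondria, whereas a small set of core membrane subunits of complexes I, III, IV and V is encoded by mitochondrial DNA. Striatal projection neurons, the main cell type of the striatum, rely heavily on this pathway, and reduced respiratory enzyme activity has long been studied in Huntington's disease.

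The libraries held 13612381 to 22702547 assigned reads. Csnk2a2, the deleted gene, was at 14.7 to 19.9 CPM (read counts scaled to a common library size with TMM factors) in the 8 heterozygous mice and at 29.4 to 37.5 CPM in the other 10, so each library matched the CK2a' genotype of its label. This gene does not check the zQ175 genotype. Xist, used below as a covariate for sex, was either low or high in each library. It was at 0.50 to 47.0 CPM in WT replicate 1, zQ175 replicates 1, 3 and 5, CK2a'(+/-) replicates 1 and 2 and zQ175:CK2a'(+/-) replicate 5. The other libraries had 990 to 1290 CPM. Neuronal and glial markers of striatum were expressed in each library, and none of the 16 projection neuron markers was at 0 in any genotype. Choroid plexus, the epithelium that lines the ventricles, stood out in 4 libraries: Ttr, its most abundant transcript, was at 908 to 2904 CPM in WT replicate 1, WT replicate 3, CK2a'(+/-) replicate 1 and zQ175:CK2a'(+/-) replicate 2, and at most at 10.5 CPM in the other 14.

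Together the 80 genes took 0.424% to 0.624% of the reads of a WT library, against 19.0% to 24.0% for genes encoded by mitochondrial DNA. Per kilobase of exon, the scale on which genes can be compared with each other, the highest mean level over the 18 mice was 176 CPM per kb for Cox8a, the ubiquitous form of a small subunit of cytochrome c oxidase. The highest in complex I was Ndufb9 (111 CPM per kb), an accessory subunit of the membrane arm, in complex III Uqcr11 (109), in complex V Atp5b (106), the catalytic beta subunit of ATP synthase, and in complex II Sdha (52.3), the flavoprotein that oxidises succinate. The lowest members were far below these. Ndufa4l2 and Cox6b2 had 0.622 and 0.83 CPM per kb, and Uqcrc1, which lies beside a run of neighbouring genes near 0 and is not read as a level of expression, had 0.588.

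**Figure D1:**
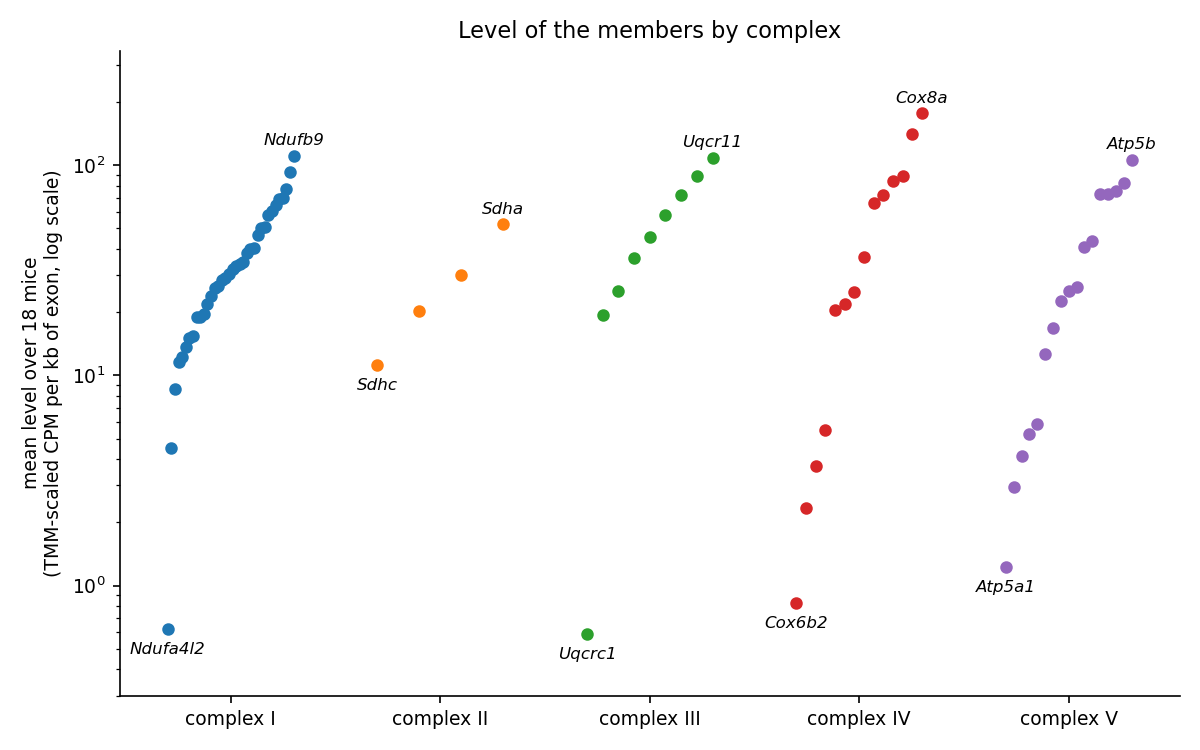
Mean level of each of the 80 genes over the 18 mice, in TMM-scaled CPM per kilobase of summed exon length on a log axis, by complex; each point is 1 gene, in rising order within its complex. Cox8a at 176 is the highest point; the lowest points of complexes III and V, Uqcrc1 and Atp5a1, lie in or beside runs of neighbouring genes near 0 and are not read as levels of expression.

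Several subunits exist as isoforms that differ between tissues, and in each pair the form known from muscle or testis was the lower one. Cox6a1 was at 141 CPM per kb and its muscle form Cox6a2 at 5.53. Cox7a2 was at 36.5 and the muscle form Cox7a1 at 2.35, and Cox8a was at 176 against 3.73 for the muscle form Cox8b, which was at 2.36 without zQ175:CK2a'(+/-) replicate 2 and at 0.88 without the 4 libraries high in choroid plexus genes. Cox6b1 was at 89.1 against 0.83 for Cox6b2, known from testis. Cox7b was at 72.2, with Cox7b2 below the count minimum. The genes Atp5g1, Atp5g2 and Atp5g3 encode the same mature c subunit of the ATP synthase ring, and they had 5.86, 2.96 and 25.3 CPM per kb. Ndufa4, now known as a subunit of complex IV though named for complex I, was at 26.6 against 0.622 for Ndufa4l2.

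For 3 core subunits, which every respiring cell needs, few reads were counted. Ndufs3, a core subunit of complex I, had 11 reads in all 18 libraries. Its protein-coding neighbours C1qtnf4, Kbtbd4, Celf1 and Rapsn had 21, 0, 105 and 0, whereas Mtch2 and Psmc3 on either side had 6369 and 26098. Uqcrc1, a core protein of complex III, had 785 reads, with Nckipsd at 3, Celsr3 at 37 and Slc26a6 at 0 on one side and Col7a1 at 1159, Ucn2 at 15 and Pfkfb4 at 2394 on the other. Atp5a1, the alpha subunit of ATP synthase, had 1262 reads, against 147150 for its partner Atp5b, and lay beside Haus1 with 17 and Epg5 with 18. The cause of these runs of neighbouring genes near 0 was not tested, and the values of Ndufs3, Uqcrc1 and Atp5a1 were not read as levels of expression.

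Transcription of many respiratory genes is known to use the factors NRF-1, GABP, which is of the ETS family, and YY1. RefSeq start regions (GRCm38.p6, 250 bases before to 50 after the start) were at hand for 64 of the 80 genes and were searched on both strands for GCGCATGC (NRF-1), CCGGAAG (ETS) and AAGATGGC (YY1). The NRF-1 letters were present in 10 of 64 (15.6%), against 3.05% of all 27025 genes with a window and 4.11% of the protein-coding ones. The ETS letters were present in 15 (23.4%, against 9.93% and 13.4%), and the YY1 letters in 9 (14.1%, against 3.19% and 3.64%). At least 1 of the 3 was found in 28 genes, or 43.8%, against 14.9% and 19.3%. A match describes the letters only, and no match says only that these letters are not in the window.

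Most matches of the YY1 letters lay shortly after the start, where the window ends 50 bases on, so that later matches were not seen. All 9 matches were on the gene's own strand, and 8 of them began 23 to 39 bases after the start, where the letters hold an ATG. Sites of 30 bases are printed for the complex I genes Ndufs7, Ndufa9, Ndufb8 and Ndufs6, with the YY1 letters in capitals, since Ndufs7 passed the test below in zQ175 and Ndufa9 had a log2 fold change near 0 there.
Ndufs7: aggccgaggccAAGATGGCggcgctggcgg
Ndufa9: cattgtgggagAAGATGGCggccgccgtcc
Ndufb8: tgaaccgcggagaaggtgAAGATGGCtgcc
Ndufs6: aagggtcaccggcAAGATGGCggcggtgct

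In 5 of the 10 genes with the NRF-1 letters, the letters lay in a palindrome, so that overlapping matches were found on both strands. The sites of Ndufa11, Atp5k and Sdhb are printed with the letters of 1 match in capitals (GCATGCGC where the match lies on the other strand), because these 3 genes come from 3 complexes.
Ndufa11: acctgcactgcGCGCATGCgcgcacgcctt
Atp5k: ctttcactgcgGCGCATGCgcctttctggc
Sdhb: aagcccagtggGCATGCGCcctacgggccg

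Of 17 ETS matches, 15 began within 110 bases of the start. The start region of Cox8a, which passed the test in zQ175, holds one across the start itself, at position -5, and another past the printed stretch, at position 33, and that of Ndufa6, which passed it when zQ175 was averaged over both CK2a' genotypes, holds the NRF-1 letters at position -83. Both are printed below from 120 bases before to 25 bases after the start on the gene's strand, with the matched letters in capitals. The stretches lie at chr19:7217592-7217736 and chr15:82354267-82354411 of GRCm38.p6, both on the minus strand.
Cox8a: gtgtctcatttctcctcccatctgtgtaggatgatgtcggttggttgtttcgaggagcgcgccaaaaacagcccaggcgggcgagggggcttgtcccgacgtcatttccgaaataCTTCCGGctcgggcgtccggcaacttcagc
Ndufa6: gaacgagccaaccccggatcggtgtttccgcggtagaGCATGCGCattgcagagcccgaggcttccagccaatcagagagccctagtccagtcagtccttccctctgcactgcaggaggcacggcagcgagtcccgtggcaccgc

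The zQ175 mice were compared with WT to ask how the Huntington's disease allele alone was related to these transcripts. The nuclear oxidative phosphorylation genes were lower in zQ175: 77 of 80 had a negative log2 fold change, and the median was -0.28, against 0.00 over all 20914 genes tested, of which 49.4% were lower. A median of -0.28 is 17.6% less than WT. Called at a false discovery rate (FDR) under 0.1 in edgeR's quasi-likelihood test were 4 genes, all lower: Ndufs7, Ndufb10, Uqcrq and Cox8a. Over all genes tested, 0.712% were called lower. At an unadjusted p under 0.05, 39 of the 80 genes were lower and 0 higher, where 7.1% of all genes were lower. DESeq2 with default settings, the test the study used, called 19 of the 80, all lower, where it called 5.26% of the genes it gave an adjusted p in either direction.

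Ndufs7 encodes the complex I core subunit that holds the last iron-sulfur cluster before ubiquinone. It was at 65.3, 58.8, 65.4, 70.5 and 72.9 CPM in the 5 WT mice and at 47.2, 50.8, 55.5, 48.4 and 49.9 CPM in the 5 zQ175 mice, so the genotypes did not overlap. The log2 fold change was -0.40 ± 0.08 (SE; 95% interval -0.58 to -0.23; edgeR FDR 0.048).

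Ndufb10 encodes an accessory subunit of the membrane arm of complex I. Its CPM was 142.8, 106.1, 136.9, 129.8 and 129.4 in WT and 78.9, 104.7, 104.8, 97.4 and 90.9 in zQ175. The lowest WT mouse, replicate 2, lay just above the highest zQ175 mouse, and the log2 fold change was -0.44 ± 0.10 (SE, edgeR FDR 0.059).

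Uqcrq, a small subunit of complex III that lies beside cytochrome b, was at 152.9, 115.3, 177.0, 167.8 and 170.0 CPM in WT and at 89.9, 121.1, 106.7, 126.2 and 104.9 CPM in zQ175. Here WT replicate 2 lay within the zQ175 range while the other 4 WT mice lay above it. The log2 fold change was -0.51 ± 0.12 (SE, edgeR FDR 0.071).

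Cox8a was at 120.3, 99.3, 132.4, 123.2 and 130.5 CPM in WT and at 87.0, 98.3, 94.0, 96.7 and 91.2 CPM in zQ175. The ranges lay close without overlapping, with WT replicate 2 again the lowest of its group, and the log2 fold change was -0.38 ± 0.10 (SE, edgeR FDR 0.096). Of 31 alternatives run, the call was lost in 23 for Cox8a, in 11 for Uqcrq, in 8 for Ndufb10 and in 6 for Ndufs7, and the sign held in each. In all, 4 of the 80 genes did not overlap between the genotypes and were lower in zQ175, where 1.19% of all genes did so: Ndufs7, Ndufb10, Cox8a and Ndufs5, an accessory subunit of complex I that ranged from 41.8 to 61.8 CPM in WT and from 33.2 to 41.6 CPM in zQ175.

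**Figure D2:**
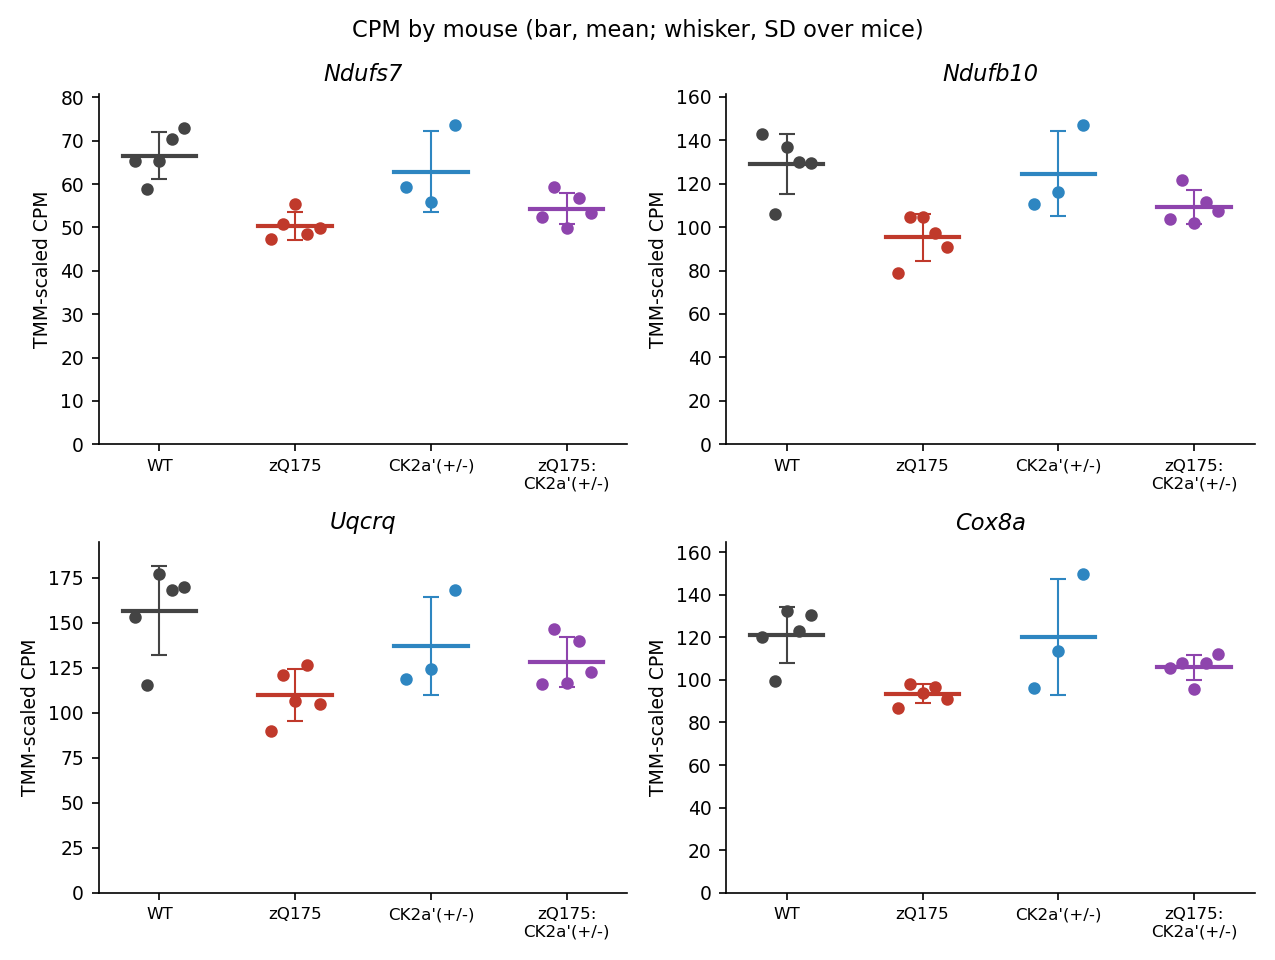
TMM-scaled CPM of Ndufs7, Ndufb10, Uqcrq and Cox8a in each mouse by genotype; each point is 1 mouse, the bar is the mean and the whisker the SD. The 5 zQ175 mice lie below the 5 WT mice for Ndufs7, Ndufb10 and Cox8a, and overlap with 1 WT mouse for Uqcrq; the mean of zQ175:CK2a'(+/-) lies between the means of WT and zQ175.

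By complex, the median log2 fold change in zQ175 was -0.30 in complex I (35 of 36 lower, 2 called), -0.15 in complex II (3 of 4 lower, 0 called), -0.32 in complex III (8 of 9 lower, 1 called), -0.29 in complex IV (14 of 14 lower, 1 called) and -0.28 in complex V (17 of 17 lower, 0 called). Differences between the complexes were not tested. The members with a higher value in zQ175 were Ndufa9 (0.03 ± 0.08), Sdha (0.02 ± 0.06) and Uqcrc1 (0.44 ± 0.39; log2 ± SE). Uqcrc1 turned to -0.24 without zQ175 replicate 4, and without WT replicate 1 Sdha turned to -0.0046 and Ndufa9 to -0.015.

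Within complex I, the 6 core subunits measured had a median of -0.13 and the 30 accessory ones of -0.32, and the difference between these medians was not tested. Of the core, Ndufs1, which carries electrons through iron-sulfur clusters, was at 110.5 ± 7.0 CPM in WT and 108.5 ± 8.9 CPM in zQ175 (SD, n = 5), a log2 fold change of -0.03 ± 0.07 (SE). Ndufv1, which binds NADH and the flavin, had -0.12 ± 0.07 and Ndufv2 -0.11 ± 0.09. Ndufs8, an iron-sulfur subunit, fell short of the threshold with -0.45 ± 0.13 (edgeR FDR 0.12). Of the accessory subunits, the most negative log2 fold changes were those of Ndufa7 (-0.63 ± 0.18, edgeR FDR 0.12) and Ndufa11 (-0.52 ± 0.14, edgeR FDR 0.11).

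Complex II, which is also an enzyme of the citric acid cycle, held the steadiest transcript. Sdha had the smallest spread within genotypes of the 80 genes, an SD of 0.06 on the log2 CPM scale against a median of 0.21 over the 80, and was at 215.9 ± 11.8 CPM in WT and 219.3 ± 8.6 CPM in zQ175 (SD, n = 5). Sdhb, its iron-sulfur partner, had a log2 fold change of -0.27 ± 0.10 (SE, edgeR FDR 0.25). The membrane anchors Sdhc and Sdhd had -0.16 ± 0.09 and -0.13 ± 0.12.

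In complex III, Uqcrfs1, the Rieske iron-sulfur protein, was at 49.9 ± 6.3 CPM in WT and 48.6 ± 1.6 CPM in zQ175 (SD, n = 5), a log2 fold change of -0.04 ± 0.08 (SE), and Uqcrc2, a core protein, had -0.06 ± 0.08. Cyc1, cytochrome c1, had -0.32 ± 0.12 (edgeR FDR 0.21). The small subunits Uqcr11, Uqcr10 and Uqcrh had -0.57 ± 0.16, -0.34 ± 0.16 and -0.34 ± 0.12, and of these complex III genes none but Uqcrq passed the threshold.

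In complex IV, Cox5b had a log2 fold change of -0.28 ± 0.10 (edgeR FDR 0.19), Cox6a1 of -0.36 ± 0.12 (0.19) and Cox5a, a subunit on the matrix side, of -0.15 ± 0.14 (0.68). In complex V, Atp5b was at 473.0 ± 42.6 CPM in WT and 419.9 ± 21.9 CPM in zQ175 (SD, n = 5), a log2 fold change of -0.17 ± 0.07 (SE, edgeR FDR 0.27). The gamma subunit Atp5c1, the rotor shaft, had -0.24 ± 0.09 (0.23), and Atp5g3, the most abundant of the c subunit genes, had -0.23 ± 0.09 (0.29). None of the 17 complex V genes passed the threshold, with a lowest FDR of 0.16. At an unadjusted p under 0.05, 9 of them were lower, where 7.1% of all genes were lower.

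**Figure D3:**
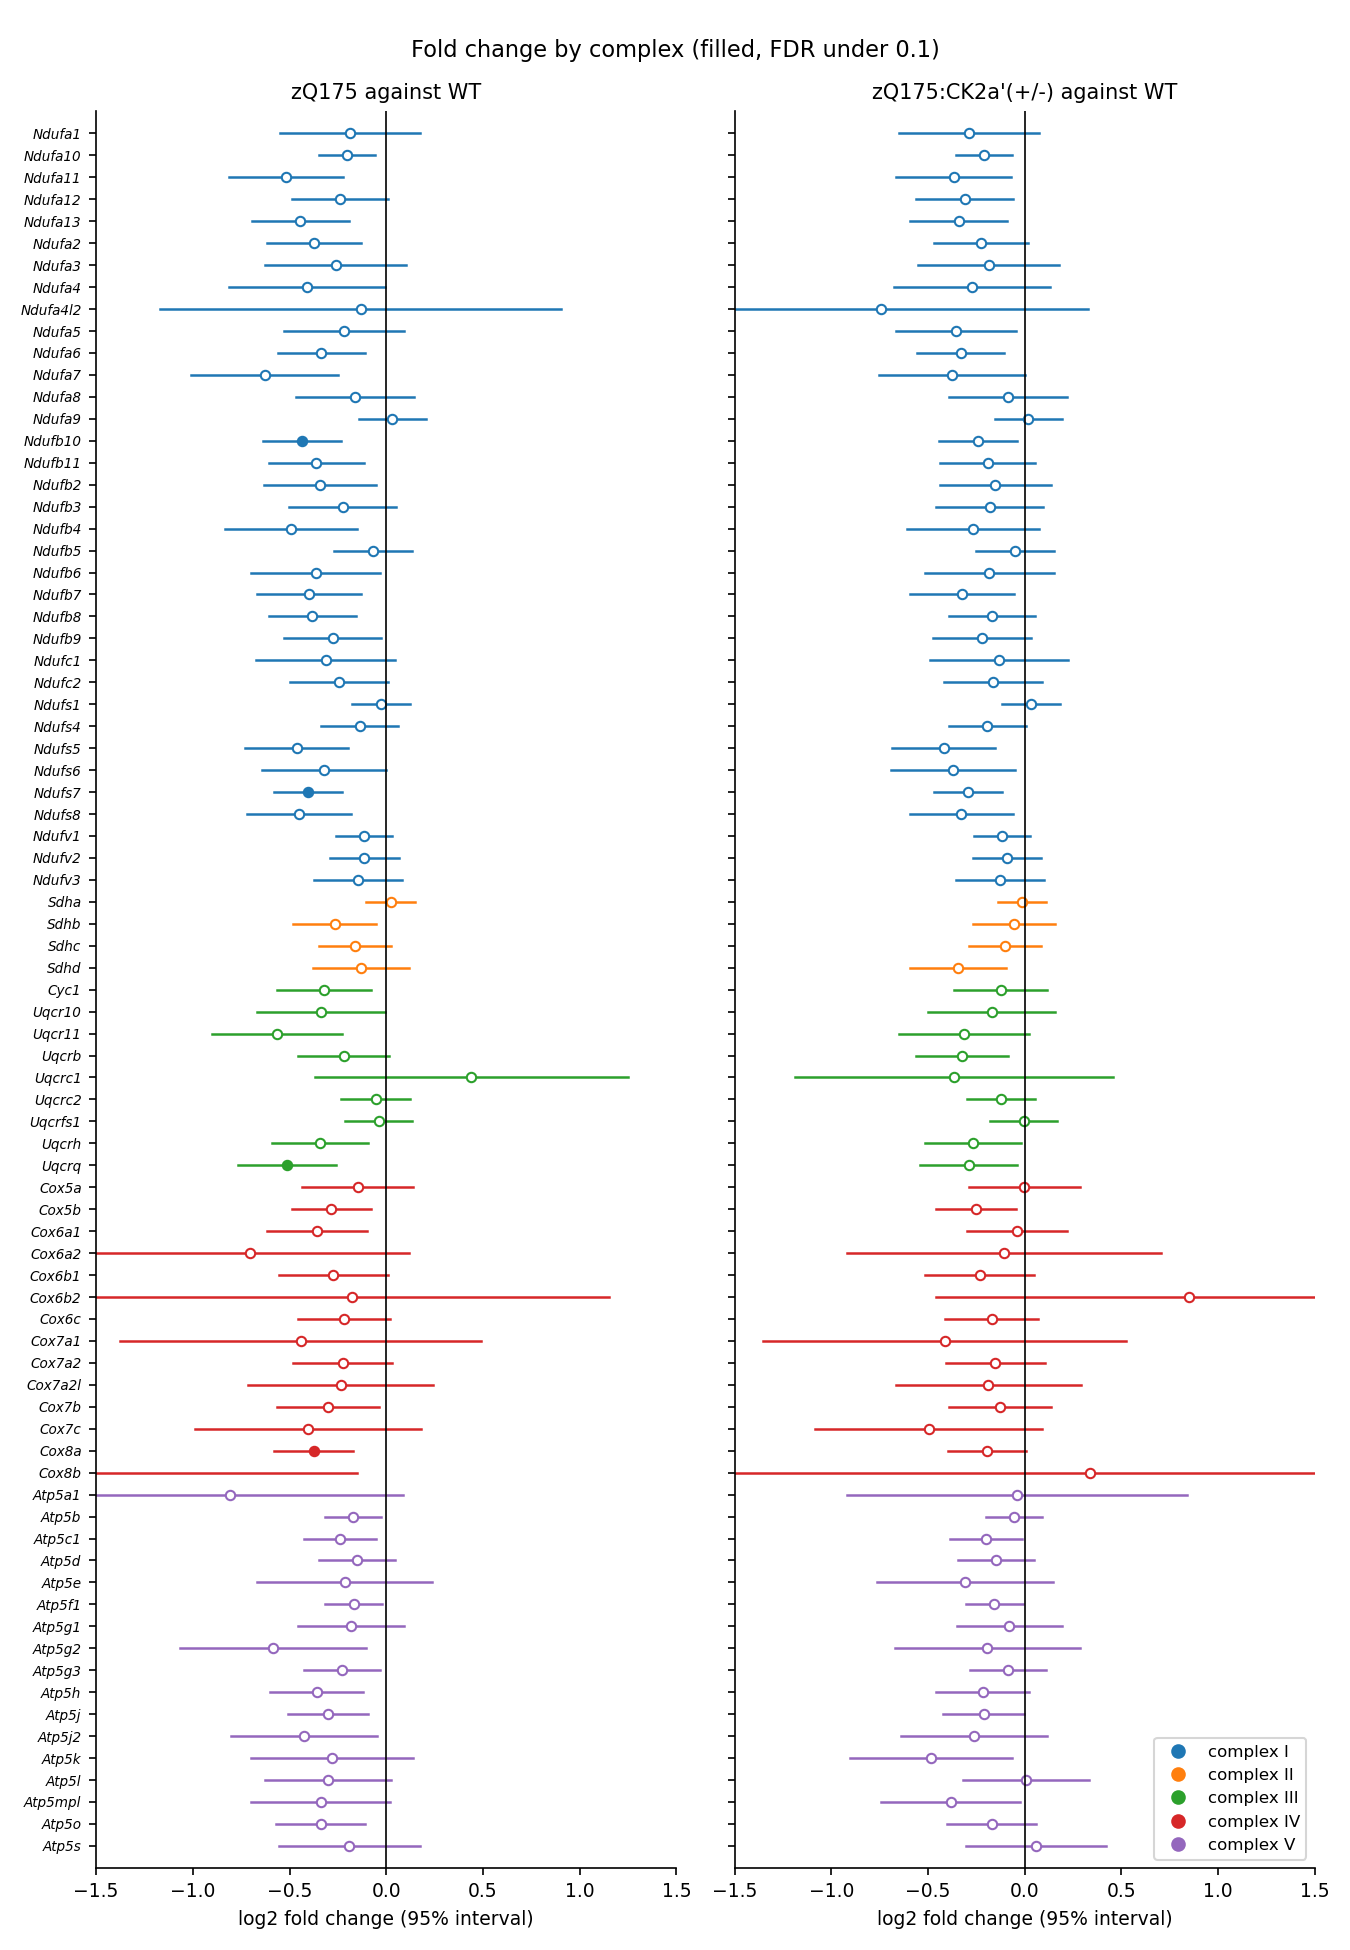
Log2 fold change with its 95% interval for 79 of the 80 genes in zQ175 against WT (left) and zQ175:CK2a'(+/-) against WT (right), coloured by complex; filled points passed an FDR under 0.1 in edgeR. On the left 76 of 79 points lie below 0 and 4 are filled, on the right 73 lie below 0 and none is filled; intervals and the Cox8b point on the left run past the axis limits of 1.5. The WT mice are shared by both sides.

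The calls rested on individual libraries. Over the WT mice, the median of the 80 genes as log2 CPM minus the WT mean was 0.01, -0.32, 0.03, 0.15 and 0.12, so that WT replicate 2 lay with the zQ175 mice, which were at -0.34, -0.08, -0.26, -0.30 and -0.39. WT replicate 2 was the lowest WT mouse for 66 of the 80 genes. Without it, 31 genes were called and the median log2 fold change was -0.38, where 2.82% of all genes were called in either direction. Without WT replicate 1, WT replicate 3 or zQ175 replicate 5, 0 were called, and these fits called 10, 0 and 0 of all genes. Leaving out zQ175 replicate 1 left 1, WT replicates 4 or 5 or zQ175 replicate 3 left 2, zQ175 replicate 2 gave 7, and CK2a'(+/-) replicate 3, which enters through the shared estimate of the spread, gave 10. Of all genes, between 0.37% (without zQ175 replicate 1) and 1.56% (without CK2a'(+/-) replicate 3) were called in these fits. The median stayed between -0.38 and -0.23 in all of these. Without the 4 libraries high in choroid plexus genes, 0 of the 80 and 1 of all genes were called, 27 of the 80 had an unadjusted p under 0.05, where 7.78% of all genes did, and the median was -0.28.

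Exon length moved with the result. The 80 genes are short, with a median summed exon length of 1578 bases against 4484 over the protein-coding genes tested. Among protein-coding genes outside the 80, the median log2 fold change in zQ175 was -0.26 under 1000 bases (302 genes), -0.19 from 1000 to under 2000 bases (1452 genes), -0.07 from 2000 to under 4000 bases (4488 genes) and 0.04 from 4000 bases on (8359 genes). The oxidative phosphorylation genes in the same ranges had medians of -0.35 (20 genes), -0.33 (31), -0.19 (19) and -0.17 (10). With an offset that removed the trend with exon length in each library, 61 of the 80 were lower, the median was -0.08 and 0 were called, where 0.368% of all genes were called. At an unadjusted p under 0.05 were 16 of the 80, 15 of them lower, where 12.5% of all genes passed in either direction and 4.74% were lower. Of these 16, 15 had also passed without the offset, and the one that was higher was Ndufa9, at 0.17 (edgeR FDR 0.33). Under this offset the log2 fold change of Uqcrq was -0.34 (edgeR FDR 0.16), of Ndufs7 -0.22 (0.17), of Ndufb10 -0.21 (0.21) and of Cox8a -0.05 (0.80). Fragment sizes of the libraries were not used here, and whether RNA quality or library preparation was the source of the trend was not tested.

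**Figure D4:**
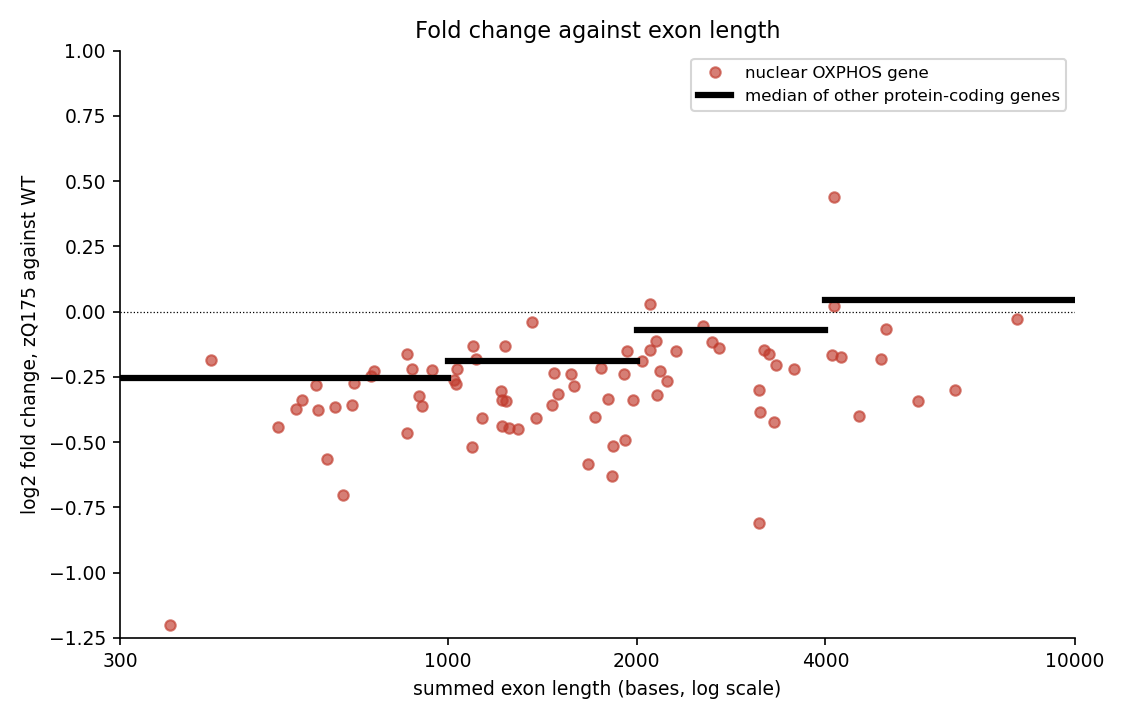
Log2 fold change in zQ175 against WT (vertical axis) against summed exon length in bases (log scale) for each of the 80 genes (points), with the median of the other protein-coding genes in 4 length ranges (black lines at -0.26, -0.19, -0.07 and 0.04). The medians of the points in the same ranges are -0.35, -0.33, -0.19 and -0.17; Cox8b, at -2.72, is drawn at the lower limit of -1.2.

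Genes of a different pathway, the cytosolic ribosome, were also lower. Of 83 cytosolic ribosomal protein genes, a list added after the values had been seen, 80 were lower in zQ175 and 14 were called lower, with a median of -0.38. Over the WT mice their median deviation ran from -0.31 in replicate 2 to 0.12, and over the zQ175 mice from -0.55 to -0.24. The mitochondrially encoded subunits did not follow: of 13 measured, 9 were higher and 4 lower in zQ175, 0 were called, and the median was 0.02. Both mt-Nd1 and mt-Co1, at 4442 and 7808 CPM in WT, had log2 fold changes of 0.02 ± 0.08 and 0.04 ± 0.09 (SE). The source of the difference between the nuclear and the mitochondrial genes was not tested.

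**Figure D5:**
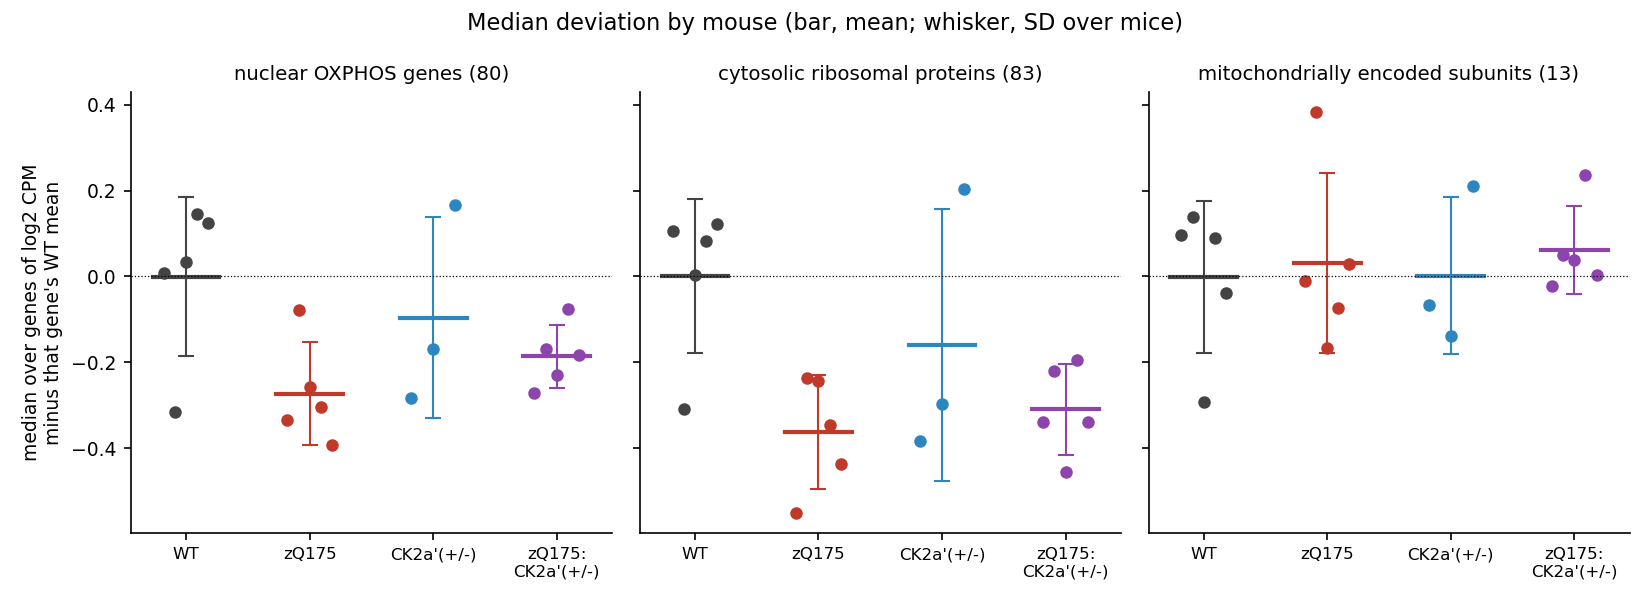
For each mouse, the median over genes of log2 CPM minus that gene's WT mean, for the 80 nuclear genes (left), 83 cytosolic ribosomal protein genes (middle) and 13 mitochondrially encoded subunits (right); each point is 1 mouse, the bar is the mean and the whisker the SD. In the left and middle panels WT replicate 2 and 2 of the 3 CK2a'(+/-) mice lie with the zQ175 mice; in the right panel the genotypes overlap.

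The rest of the pathway was read from lists. Of 6 further subunits or carriers tested that the symbol rule leaves out, all were lower in zQ175 and 1 was called: Cox4i2, an oxygen-responsive isoform of cytochrome c oxidase subunit IV known from lung and pericytes, at 1.98 ± 0.96 CPM in WT and 0.62 ± 0.23 CPM in zQ175 (SD, n = 5; log2 fold change -1.67 ± 0.41, edgeR FDR 0.077). Cox4i1, the main isoform, was at 296.2 ± 56.2 and 224.3 ± 32.1 CPM (-0.40 ± 0.15, edgeR FDR 0.21). Cycs, cytochrome c, had -0.04 ± 0.11 and Ndufab1, the acyl carrier protein, -0.21 ± 0.13. Assembly factors were called in no complex: 12 of 16 for complex I, 3 of 4 for II, 5 of 6 for III, 13 of 19 for IV and 2 of 4 for V were lower, with medians of -0.09, -0.25, -0.15, -0.12 and -0.01. Of 14 transcription regulators, 8 were lower and 0 called, with a median of -0.03. Ppargc1a, the coactivator of mitochondrial biogenesis, was at 75.1 ± 4.1 CPM in WT and 78.9 ± 9.6 CPM in zQ175 (SD, n = 5; log2 fold change 0.07 ± 0.11, edgeR FDR 0.84). Nrf1 and Tfam had -0.05 ± 0.11 and 0.11 ± 0.11.

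Markers of several cell types also differed between zQ175 and WT. The 16 projection neuron markers were all lower in zQ175 with 4 called (Penk, Adora2a, Scn4b and Ppp1r1b). They summed to 4297 to 10123 CPM in WT and 2539 to 4877 CPM in zQ175. Over WT replicates 1 to 5 their median deviation was 0.21, 0.71, 0.07, -0.44 and -0.56. The oxidative phosphorylation genes had 0.01, -0.32, 0.03, 0.15 and 0.12, and their lowest WT mouse, replicate 2, was the highest for the markers. Over zQ175 replicates 1 to 5 the markers had -1.27, -0.31, -0.45, -0.33 and -0.54. The genes had -0.34, -0.08, -0.26, -0.30 and -0.39, and replicate 2 was the highest for both. All 8 oligodendrocyte markers were lower with 5 called (among them Cldn11, Mobp, Cnp and Mbp), and summed to 5502 to 7593 and 3586 to 5389 CPM. The 8 markers of cortical excitatory neurons were all higher with 1 called (Tbr1), at 63.8 to 145 and 137 to 433 CPM. Their median deviation was 2.21 in zQ175 replicate 5 and 0.31 to 1.13 in the other zQ175 mice. The 8 microglia markers were all lower with 3 called (C1qa, C1qb and C1qc), at 202 to 244 and 146 to 209 CPM. The 10 pan-neuronal markers, 6 of them higher and 0 called, summed to 4340 to 4728 and 4661 to 5331 CPM. The 8 astrocyte markers were all lower with 0 called and a median of -0.17, at 3268 to 4562 and 3113 to 3678 CPM. No marker of these lists was at 0 throughout a genotype, and the part of cell composition in the lower values of the oxidative phosphorylation genes was not tested.

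The zQ175:CK2a'(+/-) mice were compared with the same WT mice to ask how the allele was related to these genes where CK2a' was reduced. Of the 80 genes, 74 were lower and the median log2 fold change was -0.19, against -0.01 over all genes. None was called by edgeR or by DESeq2, where edgeR called 0.0143% of all genes, and 23 had an unadjusted p under 0.05, all lower, where 4.85% of all genes were lower at that level. The medians were -0.22 in complex I, -0.08 in II, -0.27 in III, -0.16 in IV and -0.17 in V. Over the 5 mice the median deviation of the 80 genes was -0.27, -0.17, -0.23, -0.08 and -0.18. Under the length offset the median was -0.07. In the same comparison 81 of 83 ribosomal protein genes were lower with 0 called and a median of -0.29, as were all 16 projection neuron markers with 0 called (-0.44) and 7 of 8 oligodendrocyte markers with 0 called (-0.25).

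The 3 genes with the lowest p in this comparison were complex I subunits. Ndufs7 was at 52.4, 59.2, 49.97, 56.7 and 53.4 CPM in the zQ175:CK2a'(+/-) mice, with 1 of them above the lowest WT mouse, and had a log2 fold change of -0.29 ± 0.08 (SE, edgeR FDR 0.32). Ndufs5 had -0.42 ± 0.13 (0.33) and Ndufa6, an accessory subunit of the matrix arm, -0.33 ± 0.11 (0.38). In this comparison 2 genes, Ndufa10 and Uqcrb, had every mouse below every WT mouse, as did 0.899% of all genes.

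The direct comparison of zQ175 with zQ175:CK2a'(+/-) mice asks whether the loss of 1 CK2a' copy was related to the transcripts on the Huntington's disease background. The 80 genes had a median of -0.08, with 61 lower in zQ175, and none was called by edgeR or DESeq2, where edgeR called 0.0143% of all genes. The sign turned for 11 of the 80 without zQ175:CK2a'(+/-) replicate 2 and for 0 to 7 in the other fits without 1 mouse. It turned for 11 without the 4 libraries high in choroid plexus genes and for 19 under the length offset. At an unadjusted p under 0.05 there were 2 genes, Cox6a1 and Cox8b, where 6.27% of all genes passed. Cox6a1 was at 83.2 ± 11.1 CPM in zQ175 and 103.7 ± 5.7 CPM in zQ175:CK2a'(+/-) (SD, n = 5; log2 fold change -0.32 ± 0.12, edgeR FDR 0.68), and Sdhb followed with -0.21 ± 0.10 (0.80). Other protein-coding genes had medians of -0.10 under 1000 bases of exon, -0.07 from 1000 to under 2000, -0.02 from 2000 to under 4000 and 0.01 from 4000 on, where the oxidative phosphorylation genes had -0.08, -0.07, -0.06 and -0.07. None of the marker genes was called in the lists given next, and their part was not tested. All 8 oligodendrocyte markers (median -0.29), 7 of 8 microglia markers (-0.32), 14 of 16 projection neuron markers (-0.20) and all 6 choroid plexus markers (-3.31) were lower in zQ175, and all 8 markers of cortical excitatory neurons were higher (0.73). For 58 of the 80 genes the 95% interval lay between -0.5 and 0.5, and for 17 it reached below -0.5, so that a p above the threshold does not show that the genotypes were alike.

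Cox8b was high in libraries with high choroid plexus genes. It was at 3.79 and 4.97 CPM in WT replicates 1 and 3, at 1.26 in CK2a'(+/-) replicate 1 and at 9.69 in zQ175:CK2a'(+/-) replicate 2, the 4 libraries with high Ttr, and at most at 0.83 CPM in the others. In zQ175 against WT its log2 fold change was -2.72 with all libraries and 1.42 without those 4, and the part of choroid plexus in it was not tested. It had the largest spread within genotypes of the 80 genes, an SD of 1.86 on the log2 CPM scale.

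CK2a'(+/-) mice were compared with WT to ask what the loss of 1 Csnk2a2 copy alone was related to. None of the 80 genes was called by edgeR or DESeq2 and 0 had an unadjusted p under 0.05, where edgeR called 0.0143% of all genes and 4.48% had an unadjusted p under 0.05. The median was -0.09 with 64 lower. The 3 mice were far apart: the median deviation was -0.28, -0.17 and 0.17, and replicate 3 was the highest of the 3 for 69 of the 80 genes. In these mice other protein-coding genes under 1000 bases of exon had -0.20, -0.18 and 0.19, and ribosomal protein genes -0.38, -0.30 and 0.20. Against WT, other protein-coding genes had medians of -0.07 under 1000 bases and -0.07 from 1000 to under 2000. The oxidative phosphorylation genes of these lengths had -0.10 and -0.10. Replicate 3 also had the high Xist level among the 3 mice. Without replicate 1 the median of the 80 turned to 0.01. The lowest p belonged to Atp5c1, at -0.17 ± 0.10 (SE; 95% interval -0.39 to 0.05; edgeR FDR 1.00), followed by Ndufb11 at -0.20 ± 0.14 and Ndufb8 at -0.18 ± 0.13, both accessory subunits of complex I.

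Against CK2a'(+/-) mice, zQ175:CK2a'(+/-) mice had a median of -0.11 with 63 of 80 lower, none called by edgeR or DESeq2, where edgeR called 0.593% of all genes, and 6 with an unadjusted p under 0.05, all lower and all with Nduf symbols, where 4.86% of all genes were lower at that level and 9.19% passed in either direction, so the share of the 80 was near that of all genes. These included Ndufa1 (-0.45 ± 0.20, edgeR FDR 0.48), Ndufa4l2 (-1.29 ± 0.57, 0.48) and Ndufa5 (-0.38 ± 0.17, 0.50). In the same comparison 76 of 83 ribosomal protein genes were lower with 0 called (median -0.19), all 16 projection neuron markers were lower with 3 called (-0.74), and 5 of 8 oligodendrocyte markers were lower with 1 called (-0.17); their part was not tested. Without CK2a'(+/-) replicate 3 the median of the 80 turned to 0.03.

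The interaction, the difference between the zQ175 effect with and without the CK2a' deletion, tests whether the effects differ. Its median over the 80 genes was 0.18, with 66 positive, which means a smaller decrease where CK2a' was reduced, and none was called by edgeR or DESeq2, where edgeR called 0.00478% of all genes. At an unadjusted p under 0.05 there were 4 genes, where 5.39% of all genes passed, so their share was near that of all genes. All 4 were positive, among them Ndufb8 (0.40 ± 0.17, edgeR FDR 0.92), Uqcrq (0.42 ± 0.19, 0.92) and Cox8b (4.24 ± 1.83, 0.92), the last of which turned to -1.68 without the 4 choroid plexus libraries. Positive with 0 called were also 69 of 83 ribosomal protein genes (median 0.18), all 8 oligodendrocyte markers (0.29), 7 of 8 microglia markers (0.44) and all 6 choroid plexus markers (3.92), and their part was not tested. Other protein-coding genes under 1000 bases had a median of 0.19, where the oxidative phosphorylation genes of that length had 0.21. The median of the 80 was 0.05 without the 4 choroid plexus libraries and 0.04 under the length offset. Whether the allele was related to these genes differently in the 2 CK2a' backgrounds was not resolved.

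Averaged over both CK2a' genotypes, which uses all 18 mice, zQ175 was associated with lower values in 75 of 80 genes, with a median of -0.20 against 0.01 over all genes. Called lower were 12 genes and higher 0, where 2.78% of all genes were called lower. They were Ndufs7 (log2 fold change -0.31 ± 0.06, edgeR FDR 0.015), Ndufb10 (-0.31 ± 0.07, 0.027), Ndufs5 (-0.39 ± 0.10, 0.036), Cox8a (-0.28 ± 0.07, 0.052), Ndufa6, Ndufa13, Uqcrq, Ndufa7, Ndufa11, Ndufb4, Atp5j and Ndufa10. Of these, 9 belong to complex I and 1 each to complexes III, IV and V, with Atp5j encoding the coupling factor F6 of ATP synthase. In the same comparison 28 of 83 ribosomal protein genes were called lower (median -0.27), as were 11 of 16 projection neuron markers (-0.71), 4 of 8 oligodendrocyte markers (-0.36) and 2 of 8 astrocyte markers (-0.19). Called higher were 2 of 8 markers of cortical excitatory neurons (0.68) and 1 of 10 pan-neuronal markers (0.03). Their part in the lower values of the 80 genes was not tested. Ndufs7 stayed called in each of the 30 alternatives run for this comparison. Without the 4 choroid plexus libraries, or under the length offset, it was the only one of the 80 called, with a median of -0.23 and -0.08. The share of all genes called in these fits is not given.

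For Ndufb4, Ndufa7, Ndufa11, Atp5j and Ndufa10 the averaged call was lost in between 16 and 23 of the 30 alternatives, while the sign held in each. Leaving out CK2a'(+/-) replicate 3 left 1 call in all, and leaving out WT replicate 2 gave 30. These fits called 1.6% and 5.57% of all genes in either direction. Without WT replicates 1, 3, 4 or 5 the number was 7, 4, 6 and 6, without zQ175 replicates 1, 4 or 5 it was 7, without zQ175 replicate 2 it was 21, and without zQ175:CK2a'(+/-) replicates 1, 3 or 5 it was 5, and the share of all genes called ran from 2.97% to 5.51%.

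Exons of 27 of the 80 genes shared bases with another gene, and 11 shared over 10%, among them Ndufa13, called in the averaged comparison, which overlaps Tssk6 on the opposite strand over 30% of its exon bases; Tssk6 itself had 18 reads. Atp5j, also called there, shares 12.7% of its exon bases with Gabpa on the opposite strand, which had 11319 reads, and Ndufa11 shares 6.4% with Vmac, which had 2411. Whether reads were counted by strand is not given in the sources used here, so reads of such pairs cannot be told apart.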

How the data were processed

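Striatal RNA of 18 mice was sequenced as paired reads from a stranded total RNA kit, 1 library a mouse. After Trimmomatic, the authors mapped the reads with HISAT2 2.1.0 (build GRCm38), discarded duplicated mappings and alignments of low mapping quality, and deposited Subread 1.6.2 counts per gene, which are raw whole-number counts with no normalization. Discarding such alignments can lower genes with near-identical copies.

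The oxidative phosphorylation genes and the lists were chosen with earlier results of these data known. All 18 libraries were fitted together in edgeR 4.0.16 (filterByExpr, TMM, quasi-likelihood, genotype as factor, Benjamini-Hochberg over 20914 genes, FDR under 0.1), in R 4.3.3. Fold changes carry the SE or 95% interval of that fit. Summaries per mouse used log2 CPM with a prior count of 2, and levels between genes were set per kilobase of deposited exon length. DESeq2 1.42.0, other scalings and filters, a replicate block, an Xist covariate (the labels give no sex) and leaving out each mouse were alternatives. The fit without 4 libraries and the offset by exon length were chosen after seeing the data. The script was tested on simulated data.

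Named were genes past the threshold, the 3 of lowest p in each comparison, core subunits, isoform sets, the extremes of level in each complex and the 3 most and least variable, and genes of the lists past the threshold in zQ175 against WT. Csnk2a2 and Ppargc1a were named in any case. Ndufa9, Uqcr10, Uqcrh and Uqcrb, and the genes whose sequences are printed, were chosen after their values were seen. Single values of 1 oxidative phosphorylation gene and 1 marker are not reported here, though both are in the counts and medians.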

Additional observations from a re-analysis of the deposited data

Results flagged for a closer look

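Dixon's test was run on the CPM of the 53 genes named and on the median of the 80 genes, in each group of 5 mice, 162 groups in all. Chance flags about 1 in 20 groups, and 16 values stood apart.

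WT replicate 2 was the low mouse in 9 of them. Its values were 121 CPM for Atp5c1 (others 157 to 167), 110.2 for Atp5j (144 to 155), 15.4 for Ndufa1 (18.2 to 18.5), 39.3 for Ndufa11 (53.9 to 57.7), 83.8 for Ndufa13 (117 to 125), 44.4 for Ndufb11 (63.8 to 71.1), 57.0 for Sdhb (74.2 to 78.5), 58.4 for Uqcr11 (84.1 to 93.9) and 54.6 for Uqcrh (85.5 to 92.0). The genes share 1 library, so these are not separate observations.

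The other 7 lay in several libraries. In zQ175 replicate 2, Uqcr10 was at 62.1 CPM (others 38.1 to 44.3) and Uqcrb at 46.4 CPM (34.9 to 38.1). Uqcrb was also at 50.5 CPM in WT replicate 4 (42.7 to 44.4). Cox8b was at 9.69 CPM in zQ175:CK2a'(+/-) replicate 2, one of the 4 libraries high in choroid plexus genes, and at 0.169 to 0.735 in its group. Atp5a1 was at 10.9 CPM in WT replicate 5 (others 2.09 to 3.84) and Uqcrc1 at 8.38 CPM in zQ175 replicate 4 (1.22 to 3.26), both among the genes in or beside runs of neighbours near 0. Atp5g1 was at 18.6 CPM in zQ175 replicate 5 (28.0 to 31.2).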

How the results depend on the processing

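In zQ175 against WT, 4 of the 80 genes were called, where 0.712% of all genes were called lower. DESeq2 called 19, where it called 5.26% of the genes it gave an adjusted p in either direction. The fit with no filter on low counts called 14, the robust fit 9, and an FDR of 0.05 left 1. For these the share of all genes is not given. The fit of only the groups compared called 0, as it called 0 of all genes. Leaving out 1 mouse gave 0 to 31. Without the 4 choroid plexus libraries, and under the offset by exon length, it was 0. The median stayed negative in each of these and moved beyond 1 SD of the WT mice only under the length offset, to -0.077. Averaged over CK2a' genotype, 12 were called, where 2.78% of all genes were called lower. An FDR of 0.05 left 3, the fit without the 4 libraries 1, the length offset 1, and leaving out 1 mouse gave 1 to 30. For the FDR of 0.05, the fit without the 4 libraries and the offset, the share of all genes is not given. In the other 5 comparisons 0 were called under every alternative run.

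No pairing of the mice by the replicate numbers of the labels was seen: over 24 pairs with the same number the median correlation of deviations was -0.01 and 2 exceeded 0.1. This does not exclude a batch shared by number. The replicate block gave 6 calls in the averaged comparison and 3 in zQ175 against WT, where 98 of all genes were called.

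In zQ175 against WT, 16 of the 80 genes changed sign under the length offset. For those named, the log2 fold change was 0.030 for Cox6b1, 0.057 for Cox6b2, 0.044 for Cox7a2, 0.13 for Ndufa4l2, 0.030 for Ndufv2, 0.10 for Sdhd, 0.053 for Uqcrc2 and 0.18 for Uqcrfs1. With the Xist covariate 2 of the 80 changed sign in the averaged comparison and 1 in zQ175 against WT. That gene was Ndufa4l2, and its log2 fold change was then 0.10. Without the 4 libraries it was 1.42 for Cox8b, -1.68 for its interaction and -0.015 for Sdha. Leaving out 1 mouse, the ranges were -0.73 to 0.12 for Cox6b2, -0.32 to 0.22 for Ndufa4l2, -0.015 to 0.073 for Ndufa9, -0.065 to 0.013 for Ndufs1, -0.0046 to 0.056 for Sdha, -0.24 to 0.64 for Uqcrc1 and -0.10 to 0.010 for Uqcrfs1. The cause of these shifts was not tested. With 5 mice a group and a median 95% interval 0.51 wide, changes of the size of the median could not be called for most single genes.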
